A study of Mus musculus with 12 samples.

Results

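Regulatory T cells (Tregs) that lacked transketolase were compared with wild-type Tregs over both drinking-water treatments of a mouse study, with the genotype as the contrast and the treatment as a factor. The comparison took in all 12 libraries of the series, 6 from knockout mice (cKO) and 6 from wild-type mice (WT), and each genotype was made up of 3 mice given vehicle and 3 given DMαKG. The deposited table lists 17955 genes, and 12903 of them passed the filter on low counts and were tested. The 4 groups of 3 were Foxp3YFP-cre TKT+/+ mice with vehicle or DMαKG and Foxp3YFP-cre TKTfl/fl mice with vehicle or DMαKG, all of strain C57BL/6 and 7 weeks old. The cells were CD4+CD25+YFP+ Tregs sorted from spleen and lymph node. DMαKG is dimethyl α-ketoglutarate, an ester of α-ketoglutarate that enters cells, and it or vehicle was in the water from the mother's pregnancy until the young were adult. Both genotypes carried the Cre recombinase that Foxp3 drives, so the 2 groups differ in the floxed Tkt allele and share the reporter and the enzyme. The deletion is therefore limited to cells that have expressed Foxp3.

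Transketolase moves carbon units between sugar phosphates in the non-oxidative branch of the pentose phosphate pathway, which links ribose 5-phosphate to the glycolytic intermediates. The oxidative branch upstream of it makes NADPH, which is used by antioxidant enzymes, by lipid synthesis and by the NADPH oxidase that makes superoxide. Tregs are CD4 T cells that hold back immune responses, and their identity rests on the transcription factor FOXP3. α-Ketoglutarate is an intermediate of the tricarboxylic acid cycle and a co-substrate of the TET DNA demethylases and the Jumonji histone demethylases.

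The summed estimated counts ran from 1.57e+07 to 1.89e+07 per library, and 12333 to 12608 genes per library had at least 10 counts. The second principal component of log2 expression, with 15.4% of the variance, placed all 6 WT libraries at or above 0.639 and all 6 cKO libraries at or below -1.43. The first, with 29.0%, did not follow genotype: 1 vehicle library of each genotype (replicate 4 in both) and WT DMαKG replicate 3 lay between -32.9 and -29.7, and cKO DMαKG replicate 3 lay at 47.0. That last library also had the lowest mean transcript length, 1872 bp against 2079 to 2301 bp in the other 11. Y-linked transcripts were low in WT vehicle replicate 3 and in cKO DMαKG replicates 1 and 3, and intermediate in WT DMαKG replicate 2. Counts of changed genes without these libraries stand beside the counts below.

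**Figure D1:**
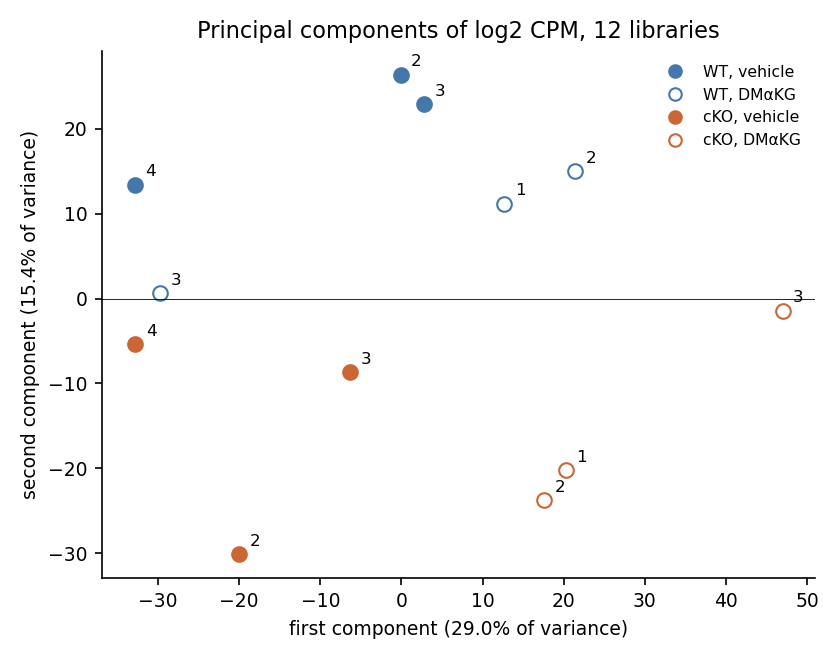
First (x axis, 29.0% of variance) and second (y axis, 15.4%) principal components of log2 CPM in the 12 libraries, with the replicate number beside each point, colour for genotype and open points for DMαKG. WT libraries lie at 0.639 or above on the second component and cKO libraries at -1.43 or below, while the first component spreads both genotypes.

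Tkt itself (gene 21881, chromosome 14, 30549131 to 30574724, GRCm38) was the gene with the smallest p. Its level in CPM, the count relative to the library size after TMM scaling, was 102 at the lowest, 122 at the median and 194 at the highest of the 6 WT libraries. In the 6 cKO libraries it was 26.2 at the lowest, 35.9 at the median and 41.8 at the highest. No cKO library reached the lowest WT library. The log2 fold change was -1.90 (SE 0.15, edgeR quasi-likelihood test, Benjamini-Hochberg adjusted p = 1.1e-04). The sources used here do not give the exons that the floxed allele removes, so the remaining Tkt counts cannot be assigned to a transcript.

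No other gene of the pentose phosphate pathway passed the test. Of the 13 tested members, Tkt fell, where 1.05% of all tested genes passed in either direction. In the list 9 members lay above 0 and the median log2 fold change was 0.05, against -0.004 over all tested genes. Taldo1, transaldolase, which shares the non-oxidative branch with transketolase, stood at medians of 119.6 and 120.7 CPM in WT and cKO, with a log2 fold change of -0.01 (adjusted p = 0.973). G6pdx, the entry enzyme of the oxidative branch, had a log2 fold change of 0.05 (adjusted p = 0.883), and Pgd, the other NADPH-making step, had 0.07 (adjusted p = 0.760). The largest change in size among the rest was that of the transketolase-like gene Tktl1, at -0.42 (SE 0.24, adjusted p = 0.511), on levels of 1.04 to 2.89 CPM.

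Over all genes, 136 passed the threshold of an adjusted p of 0.05, which is 1.05% of those tested. Of these, 102 were higher in cKO (0.791%) and 34 were lower (0.264%), so 75% of the calls were higher. Over all tested genes 49.0% had a log2 fold change above 0. In 69 of the called genes the log2 fold change was at least 1 in size, 51 higher and 18 lower. The levels of the 6 cKO and the 6 WT libraries did not overlap in 221 tested genes (1.71%), among them 100 of the 136 called ones, 78 higher and 22 lower. An unadjusted p under 0.05 was seen for 1644 genes (12.7%), 907 higher and 737 lower. DESeq2 called 412 genes, of which 59.2% were higher, and limma voom with quality weights called 675, of which 63.4% were higher. The count was 83 without the 3 libraries at the low end of the first component, 13 without the 4 libraries with low or intermediate Y-linked counts, and 56 to 198 when 1 library at a time was left out.

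Called genes lay at lower levels than the tested genes as a whole. Of 1992 genes with 1 to 5 CPM in the higher genotype, 36 rose and 10 fell, and of 2498 genes above 100 CPM, 3 rose and 3 fell. The median level was 4.56 CPM in the genes that rose, 7.67 CPM in those that fell and 26.1 CPM over all tested genes. Median transcript lengths were 3110.5, 3755 and 3133 bp in the same order. Part of the genes sit where another gene of the table overlaps them, 8.82% of those that rose, 26.5% of those that fell and 21.8% of all tested, and the sources used here do not say if the counting was by strand. Values of such genes are uncertain. Among the genes named below they include Nbea (overlapped by Mab21l1), Ccdc40 (Tbc1d16), Mmp25 (Bicdl2), Angptl2 (Ralgps1), Cxcr6 (Fyco1), Fyco1 (Cxcr6), Matn2 (9430069I07Rik), Gls2 (Spryd4) and Foxp3 (Ccdc22). They also include Cdc20 (Elovl1), Tk1 (Afmid), Cacna1d (Chdh and Dcp1a), Smarcd3 (Chpf2), G6pdx (Ikbkg), Itga4 (Cerkl), Tnfrsf4 (Sdf4), Haspin (Itgae) and Rps27rt (Osbpl10).

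**Figure D2:**
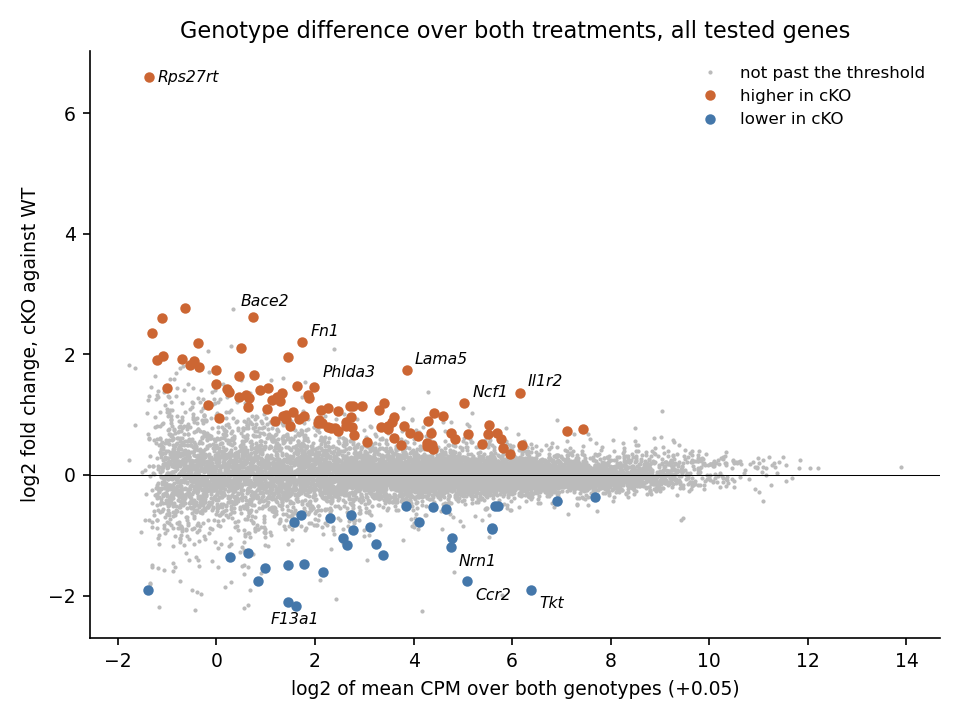
Log2 fold change of cKO against WT over both treatments (y axis) against log2 of the mean CPM (x axis, with 0.05 added before the log) for the 12903 tested genes. Coloured points passed the adjusted p of 0.05, 102 higher in orange and 34 lower in blue, and most lie at low to middle levels; the point of Rps27rt, listed at 0 in all 6 WT libraries, is a fitted value and no bound.

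Of the called genes, 4 passed in the contrast within each treatment, namely Tkt, Ncf1, Phlda3 and Nrn1. These contrasts came from a model of all 12 libraries, so their spread was shared over both treatments. In that model 0.062% of tested genes passed with vehicle and 0.186% with DMαKG. Fitted to the libraries of 1 treatment, the test gave 0 genes with vehicle and 3 with DMαKG. For Tkt, Ncf1 and Phlda3 the RefSeq promoter table (GRCm38.p6) gives a window. The 250 bases before the start are shown because these genes were called in both contrasts of the shared model. Each is written 5′ to 3′ on the strand of its gene, at chr14:30548881-30549130 on the plus strand for Tkt, chr5:134229626-134229875 on the minus strand for Ncf1 and chr1:135765835-135766084 on the plus strand for Phlda3. Capitals mark a match to any of 5 searched motifs.
Tkt: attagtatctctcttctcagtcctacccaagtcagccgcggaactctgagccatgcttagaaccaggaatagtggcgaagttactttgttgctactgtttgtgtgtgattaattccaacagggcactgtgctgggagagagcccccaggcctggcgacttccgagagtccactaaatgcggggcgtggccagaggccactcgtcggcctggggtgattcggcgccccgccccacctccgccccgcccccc
Ncf1: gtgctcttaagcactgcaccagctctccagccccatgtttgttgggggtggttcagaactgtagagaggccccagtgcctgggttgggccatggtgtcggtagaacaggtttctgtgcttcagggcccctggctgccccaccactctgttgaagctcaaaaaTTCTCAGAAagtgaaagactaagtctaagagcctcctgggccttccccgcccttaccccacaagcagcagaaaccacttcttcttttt
Phlda3: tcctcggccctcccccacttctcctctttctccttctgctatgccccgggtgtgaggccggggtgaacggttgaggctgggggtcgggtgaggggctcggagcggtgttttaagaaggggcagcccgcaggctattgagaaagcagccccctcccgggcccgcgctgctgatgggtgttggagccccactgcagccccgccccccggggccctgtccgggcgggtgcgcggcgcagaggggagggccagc
The motifs, searched on both strands, were TGANTCA (AP-1), TGACGTCA (CRE), CACGTG (E-box), TGACNNNGC (the antioxidant response element core) and TTCNNNGAA (STAT). In the 250 bases shown, Ncf1 had 1 match, to the STAT motif, and Tkt and Phlda3 had none. The shares that follow were counted over each whole window of the promoter table. Windows were found for 80 of the 102 genes that rose, 26 of the 34 that fell and 10373 of the tested genes. The STAT motif was in 9.17% of 109 windows of risen genes, 3.12% of 32 windows of fallen genes and 6.93% of 13250 windows of all tested genes. AP-1 was in 7.34%, 6.25% and 5.03%, the E-box in 10.1%, 12.5% and 9.58%, the antioxidant core in 10.1%, 9.38% and 14.2%, and CRE in 1.83%, 0% and 2.91%. These shares describe letters in a window and were not tested.

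Ncf1, which encodes p47phox, the organizer subunit of the phagocyte NADPH oxidase, rose, and Cybb, which encodes the membrane subunit that carries the electrons, fell. Ncf1 lay at 16.2, 18.9 and 23.0 CPM at the lowest, median and highest WT library and at 32.1, 44.7 and 63.0 CPM in cKO. The ranges did not overlap, and the log2 fold change was 1.19 (SE 0.12, adjusted p = 0.000567). Cybb lay at 48.4, 58.9 and 82.4 CPM in WT and at 21.5, 34.6 and 48.6 CPM in cKO, with the highest cKO library just above the lowest WT library. Its log2 fold change was -0.87 (SE 0.18, adjusted p = 0.0313), and it stayed past the threshold in 3 of the 12 fits that leave out 1 library, with the highest adjusted p, 0.0763, without WT DMαKG replicate 2. Of the 11 tested genes of the oxidase, these were the 2 that passed (18.2%, against 1.05% of all tested genes). The list's median was -0.06. Cyba, the membrane partner of the Cybb product, had a log2 fold change of 0.26 (adjusted p = 0.116), and Ncf4, the p40phox subunit, had 0.18 (adjusted p = 0.318). Rac2, the small GTPase that activates the oxidase, lay at medians of 1048 and 1039 CPM (adjusted p = 0.985).

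Phlda3, a p53 target that restrains AKT signalling, rose from a low level. It was at 1.58, 2.06 and 2.78 CPM in WT and at 4.90, 5.66 and 6.45 CPM in cKO, with a wide gap between the groups. The log2 fold change was 1.45 (SE 0.15, adjusted p = 0.000567). Bax, the pro-apoptotic pore protein, also rose, by 0.34 (SE 0.07, adjusted p = 0.037), and its cKO libraries, at 64.5 to 75.9 CPM, all lay above its WT libraries, at 49.99 to 58.3 CPM. That call held in 2 of 12 fits without 1 library, with an adjusted p of up to 0.0936 without WT DMαKG replicate 1. Of 26 tested p53 targets, 2 rose and none fell (7.69% called, against 1.05% of all tested genes), and the median was 0.08. Among those that missed the threshold, Zmat3 had 0.37 (adjusted p = 0.0585), Fas 0.30 (adjusted p = 0.114), and Cdkn1a, the p21 cell-cycle inhibitor, 1.004 (adjusted p = 0.116), with cKO libraries at 3.47 to 12.1 CPM against 1.92 to 5.11 CPM in WT. Sesn1, also on the list, had -0.32 (adjusted p = 0.158).

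Of the genes of the extracellular matrix 4 rose, from low levels. Fn1, fibronectin, was at 0.747, 1.26 and 1.42 CPM in WT and at 2.89, 5.89 and 7.44 CPM in cKO. Its log2 fold change was 2.20 (SE 0.25, adjusted p = 0.00147), and every cKO library lay above every WT library. Lama5, a chain of the basement membrane laminins, was at 4.55, 6.81 and 8.003 CPM in WT and 10.04, 21.9 and 35.4 CPM in cKO, a log2 fold change of 1.74 (SE 0.24, adjusted p = 0.00482). The lowest cKO library was above the highest WT library here too. Hspg2, perlecan, rose by 2.11 (adjusted p = 0.00643) from a WT median of 0.474 to 2.15 CPM, and Col5a1, a chain of type V collagen, by 1.97 (adjusted p = 0.0212) from 0.173 to 0.616 CPM, a call that held in 7 of 12 fits without 1 library. Matn2, a matrilin, fell by 0.51 (adjusted p = 0.047) and passed in 1 of 12 fits without 1 library, with an adjusted p above 0.05 in the rest. Of 45 matrix genes of the list in the table, 25 had enough counts to be tested. Of these, 4 rose and 1 fell, where 1.05% of all tested genes passed in either direction. The list's median was 0.47 over both treatments, 0.17 with vehicle and 0.31 with DMαKG. With at least 1 CPM required in 6 libraries, which removes part of the list, the median was 0.29. Col1a2, a chain of type I collagen and a stromal marker, had 0.88 (adjusted p = 0.0661), while the 5 tested stromal and endothelial markers had a median of -0.11 with none past the threshold; their part in the matrix result was not tested.

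**Figure D3:**
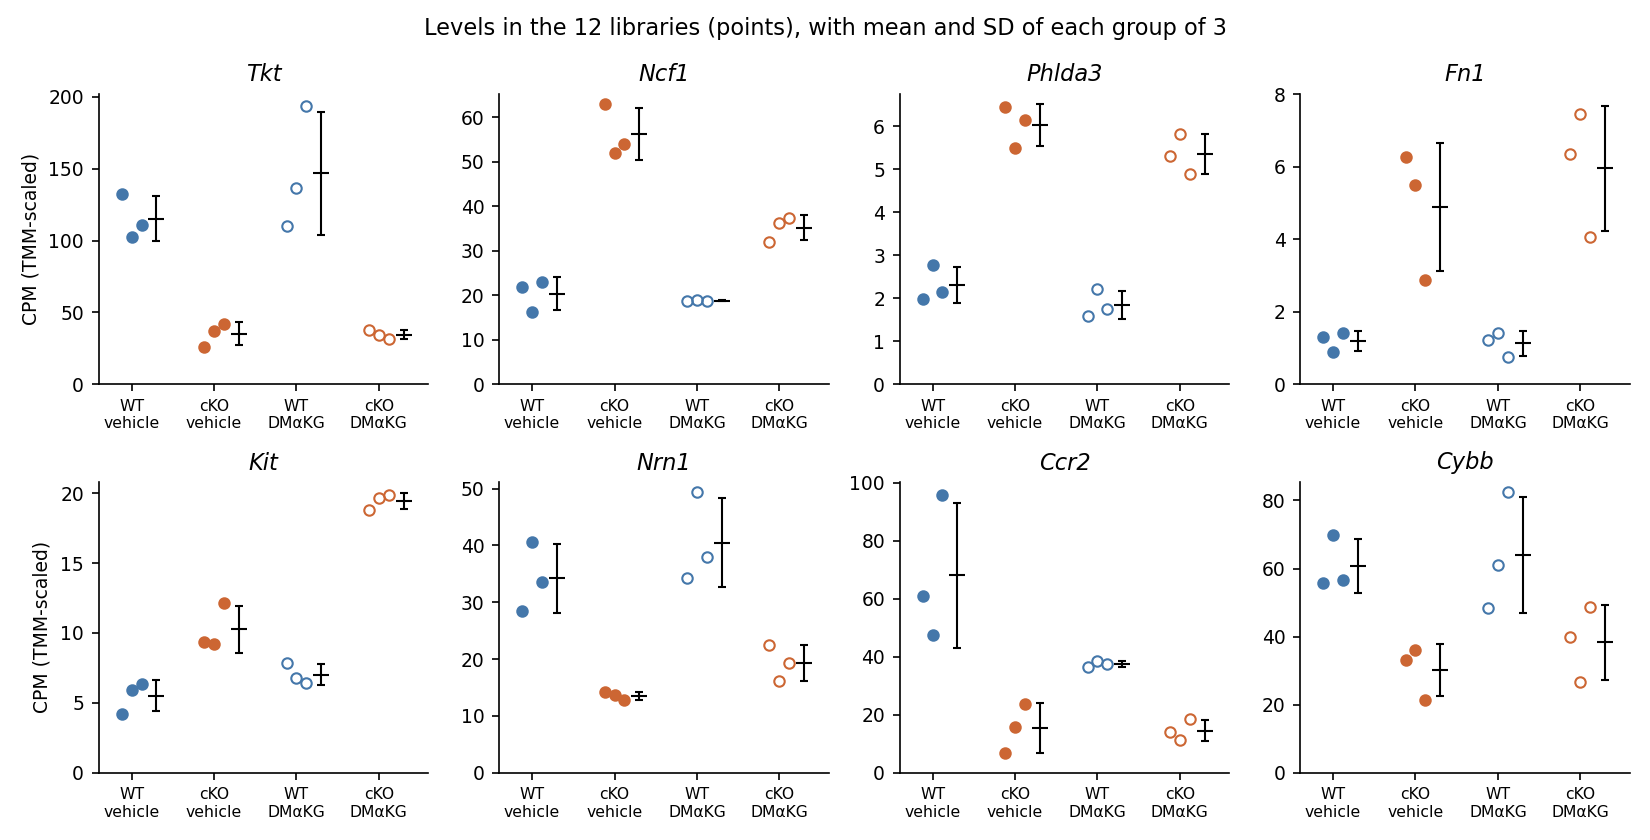
CPM (y axis, linear, from 0) of Tkt, Ncf1, Phlda3, Fn1, Kit, Nrn1, Ccr2 and Cybb in the 12 libraries, by group (x axis), with the mean and SD of the 3 libraries beside each group. In the first 7 genes no cKO library overlaps a WT library; in Cybb the highest cKO library, at 48.6 CPM, lies above the lowest WT library, at 48.4 CPM.

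The other risen genes with the smallest p encode proteins of signalling, membranes and cilia. Kit, the receptor tyrosine kinase for stem cell factor, was at 4.23, 6.37 and 7.85 CPM in WT and at 9.23, 15.5 and 19.8 CPM in cKO. The groups were apart in every library, with a log2 fold change of 1.19 (SE 0.15, adjusted p = 0.00237). Cpe, a carboxypeptidase that trims prohormones, rose by 1.08, from a WT range of 5.51 to 7.05 CPM to 9.15 to 16.4 CPM. Rgs12, a regulator of G protein signalling, rose by 0.97, from 7.16 to 9.86 CPM in WT to 11.6 to 20.9 CPM in cKO. Tspan3, a tetraspanin, rose by 0.82 and was the most abundant of these, at 27.8 to 39.8 CPM in WT and 43.0 to 70.3 CPM in cKO. Smaller levels were seen for Nbea, neurobeachin, which rose by 1.40 to a cKO median of 2.63 CPM, for Dlg5, a polarity scaffold, which rose by 1.96 to 4.20 CPM, and for Tm4sf5, a tetraspanin-like membrane protein, which rose by 1.64 to 1.996 CPM. Ubxn11 rose by 0.59, from a WT median of 23.9 to 33.7 CPM, and Ccdc40, a gene of motile cilia, by 1.28 to 3.51 CPM. Adjusted p-values of these 8 genes ran from 0.00286 to 0.00513. In all of them the 2 genotypes did not overlap, as in 100 of the 136 called genes and 1.71% of all tested genes. Each also passed without any 1 library. The choice of genes by the smallest p favours both.

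Nrn1, which encodes the membrane-anchored protein neuritin, led the genes that fell, after Tkt. It was at 28.5, 36.1 and 49.3 CPM in WT and at 12.7, 15.2 and 22.5 CPM in cKO, with no overlap. The log2 fold change was -1.20 (SE 0.13, adjusted p = 0.000567). F13a1, the coagulation factor XIII A chain, which monocytes and macrophages also make, fell by 2.10 (SE 0.28, adjusted p = 0.0043). Its libraries ran from 2.55 to 6.50 CPM in WT and from 0.596 to 1.80 CPM in cKO. Exph5, an effector of the small GTPase RAB27, fell by 1.49, and Cc2d2a, which encodes a protein of the cilium base, by 1.61, both without overlap. Gpr155 fell by 0.56 from a WT median of 29.8 to 20.3 CPM, and Angptl2, an angiopoietin-like secreted protein, by 1.05 from 32.3 to 18.2 CPM. Npas4, an activity-dependent transcription factor of neurons, fell by 0.90 from 59.5 to 32.8 CPM. Mmp25, a membrane-type matrix metalloproteinase best known from neutrophils, fell by 1.75 to 0.774 CPM, and Tmprss13, a membrane serine protease, by 1.48 to 1.52 CPM, with overlap in Tmprss13 alone of these genes. Adam12, a metalloproteinase, fell by 1.05, Tmem273 by 1.54 and Gucy2g, a guanylate cyclase, by 1.30, and these 3 passed in 6, 7 and 5 of the 12 fits without 1 library, with adjusted p-values of up to 0.0574, 0.0630 and 0.0732.

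Chemokine receptors were among the genes that fell. Ccr2, the receptor of CCL2 that draws cells to inflamed tissue, was at 36.4, 43.0 and 95.8 CPM in WT and at 6.72, 14.9 and 23.8 CPM in cKO. All cKO libraries lay below all WT libraries, and the log2 fold change was -1.76 (SE 0.29, adjusted p = 0.0168). Ccr9, the gut-homing receptor of CCL25, fell by 0.87 (adjusted p = 0.0168), from 8.16, 10.7 and 15.8 CPM to 4.39, 6.00 and 8.95 CPM, with the groups overlapping, and without WT vehicle replicate 2 its adjusted p was 0.0526. Cxcr6, the receptor of CXCL16, fell by 1.14 (adjusted p = 0.046), from 7.32, 11.8 and 21.2 CPM to 3.14, 5.99 and 7.25 CPM, and passed in 2 of 12 fits without 1 library, with an adjusted p of up to 0.114 without cKO vehicle replicate 3. Il1r2, the decoy receptor of interleukin-1, went the other way and rose by 1.36 (SE 0.25, adjusted p = 0.0271), from 26.5, 32.8 and 60.0 CPM to 54.0, 93.5 and 184 CPM, again with some overlap. Its call held in 7 of 12 fits, with 0.0763 at the most, without WT DMαKG replicate 2. Of 38 tested receptor and homing genes 1 rose and 3 fell (10.5% called, against 1.05% of all tested genes). In that list 25 lay below 0 and the median was -0.16, where 49.0% of all tested genes lay above 0. At an unadjusted p under 0.05 it held 5 higher and 11 lower, where 12.7% of all tested genes passed that mark. These shares were not tested. Near the threshold were Il1rl1, the ST2 receptor of interleukin-33, at -0.67, and Itga4, the α4 integrin, at -0.72, both with an adjusted p of 0.0585.

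The list of effector Treg genes shares Ccr2 and Cxcr6 with the receptors. Of its 38 tested members 3 fell, the third being S100a11, a calcium-binding protein, by 0.51 (adjusted p = 0.0322), and none rose. The share called was 7.89%, against 1.05% of all tested genes. At an unadjusted p under 0.05 the list held 5 higher and 10 lower, where 12.7% of all tested genes passed that mark. S100a11 passed in 1 of 12 fits without 1 library, with adjusted p-values up to 0.0935. The median of the list was -0.15 over both treatments, -0.46 with vehicle and 0.02 with DMαKG. Klrg1, a marker of terminally differentiated effector cells, had -1.60 (adjusted p = 0.0903) and Batf, a transcription factor of tissue Tregs, had 0.40 (adjusted p = 0.0903).

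Markers of macrophages and monocytes mostly had values in the same direction as Ccr2, F13a1 and Cybb, which those cells also express. None of their 22 tested members passed, 19 lay below 0, and the median was -0.48. The summed marker level ranged from 314 to 573 CPM in WT and from 325 to 779 CPM in cKO, so the genotypes overlapped. Csf1r, a defining receptor of these cells, was at medians of 33.9 and 19.3 CPM, and Adgre1, which encodes F4/80, at 11 and 5.33 CPM. The marker median was -1.08 with vehicle and 0.17 with DMαKG. With DMαKG, Ccr2 had a log2 fold change of -1.37, F13a1 of -2.24 and Cybb of -0.74. Dendritic cell markers had a median of -0.34, which was -1.095 with vehicle and 0.175 with DMαKG. Ccr9, which plasmacytoid dendritic cells also carry, was the single call among 15. Siglech, a defining marker of plasmacytoid dendritic cells, had -1.74 (adjusted p = 0.307). The part of these cells in the falls was not tested, and in sorted bulk samples fewer cells of a type and less RNA per cell cannot be told apart.

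None of the 6 genes chosen as a check of the Tregs passed the test. Foxp3 was at 347, 386 and 468 CPM in WT and 279.6, 412 and 545 CPM in cKO, with a log2 fold change of 0.01 (SE 0.13, adjusted p = 0.989). Il2ra, the CD25 chain used in the sort, had 0.06 (adjusted p = 0.904), and Ikzf2, which encodes Helios, had -0.04 (adjusted p = 0.903). Ctla4, an inhibitory receptor, had 0.38 with an SE of 0.31, and Il10 had -0.90 with an SE of 0.43 (adjusted p = 0.666 and 0.432). Tnfrsf18, which encodes GITR, had 0.41 (SE 0.11, adjusted p = 0.103). Of 28 tested genes of the Treg core list 1 passed, Plagl1, an imprinted zinc finger gene. Plagl1 rose by 0.69 (SE 0.11, adjusted p = 0.00984), from 28.2, 38.9 and 47.7 CPM to 50.4, 64.4 and 75.8 CPM, without overlap. The list's median was 0.17, with 22 members above 0, and Tnfrsf4, which encodes OX40, stood at 0.58 with an adjusted p of 0.0509. Among 21 genes of resting Tregs and naive T cells, Ccr9 was the single call and the median was -0.04.

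Apart from Tkt, the calls in the metabolic lists were 2 glycolytic genes, both higher. Eno2, the neuronal form of enolase, was at 4.10, 4.89 and 5.50 CPM in WT and at 7.22, 10.9 and 13.5 CPM in cKO. It rose by 1.14 (SE 0.16, adjusted p = 0.00441), with no overlap. Ldhb, a lactate dehydrogenase chain, rose by 0.50 (SE 0.10, adjusted p = 0.0326), from a range of 48.2 to 68.9 CPM to one of 71.6 to 112 CPM, and passed in 2 of 12 fits without 1 library, with an adjusted p of up to 0.0868 without WT DMαKG replicate 2. Of 25 tested glycolytic genes 2 were called (8.0%, against 1.05% of all tested genes) and 21 lay above 0, with a median of 0.13. Gapdh had 0.31 (adjusted p = 0.311) and Pkm 0.23 (adjusted p = 0.358).

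The other 6 metabolic and chromatin lists held no call. None of 30 genes of the tricarboxylic acid cycle and α-ketoglutarate handling passed (median 0.03); Idh2, a mitochondrial isocitrate dehydrogenase that makes α-ketoglutarate, had 0.31 (SE 0.09, adjusted p = 0.139), and Gls2, a glutaminase at under 1.24 CPM, had 1.21 (SE 0.38, adjusted p = 0.162). None of 11 TET and DNA methylation genes passed (median 0.12), with Dnmt3a at 0.17 and Tet3 at -0.24 (adjusted p = 0.399 and 0.514). A list of 25 Jumonji proteins and HIF hydroxylases, which holds the histone demethylases and also Egln1, Egln2, Egln3 and Hif1an, had no call either (median -0.05), and in it Kdm4d had 0.78 and Kdm7a -0.17 (adjusted p = 0.213 and 0.472). Fatty acid oxidation had no call among 25 genes (median 0.05), with Acsl1 at 0.29 and Hadh at 0.22 (adjusted p = 0.246 and 0.378). Nor did the 28 antioxidant, glutathione and NRF2 genes (median 0.05), with Gss, glutathione synthetase, at 0.43 (adjusted p = 0.144) and Nfe2l2, which encodes NRF2, at -0.47 (adjusted p = 0.253). Cholesterol synthesis had none among 23 (median -0.06), with Sqle at -0.27 and Srebf2 at -0.24 (adjusted p = 0.246 and 0.458). At unadjusted p-values under 0.05 these 6 lists held 4, 0, 1, 2, 6 and 1 genes, where 12.7% of all tested genes passed that mark. The share was above this background in the antioxidant list and near or below it in the others. The median standard error over all tested genes was 0.13, so that small shifts in these lists were not detectable one gene at a time. The lists do not hold every gene of a process. Ggt7, Aifm2 (overlapped by Macroh2a2), Prxl2a and Cpt1c, which are in none of them, were called higher, at 0.69, 0.87, 0.55 and 2.19. These genes were added after their values were seen, and passed in 12, 5, 3 and 4 of 12 fits without 1 library.

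Interferon-stimulated genes gave 2 calls among 47 tested, both higher (4.26%, against 1.05% of all tested genes). Ifitm2, a membrane protein that limits virus entry, was at 2.47, 3.44 and 4.82 CPM in WT and 5.36, 7.504 and 9.73 CPM in cKO, a log2 fold change of 1.07 (SE 0.16, adjusted p = 0.00513). Gbp2, a guanylate-binding protein, was at 118.5, 125 and 146 CPM in WT and at 163, 213 and 281 CPM in cKO (0.76, SE 0.14, adjusted p = 0.0185). Neither gene overlapped between genotypes. Most other members had values below 0: 35 of the 47 tested did so and the median was -0.11, which was 0.05 with vehicle and -0.35 with DMαKG. At an unadjusted p under 0.05 the list held 5 higher and 7 lower, where 12.7% of all tested genes passed that mark. Gbp2 passed in 9 of 12 fits, with an adjusted p of up to 0.0557 without WT vehicle replicate 2.

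No gene of the remaining stress, activation and proliferation lists passed. Among 31 immediate-early and AP-1 genes 28 lay above 0 and the median was 0.27; Nr4a3, a nuclear receptor induced by T cell receptor signals, had 0.54 (SE 0.20, adjusted p = 0.257) and Rgs1 0.39 (SE 0.25, adjusted p = 0.558). Among 19 ATF4 targets 16 lay above 0 and the median was 0.19, with Sesn2 at 0.44 and the amino acid transporter gene Slc7a5 at 0.35 (adjusted p = 0.256 and 0.300). The 40 mitosis genes had a median of -0.02, made up of -0.32 with vehicle and 0.31 with DMαKG, and the 43 genes of DNA replication had 0.02. Cdc20 and Smc4 stood at 0.30 and -0.19, and Tk1 and Gins3 at 0.41 and -0.36, all with adjusted p-values above 0.3. At an unadjusted p under 0.05 the 4 lists held 1, 2, 0 and 2 genes, in each a smaller share than the 12.7% over all tested genes.

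Markers of other cells gave 1 further call. Nkg7, a granule protein of NK and cytotoxic T cells, fell by 0.78 (adjusted p = 0.0271), from 15.1, 22.8 and 29.8 CPM to 10.9, 12.2 and 15.3 CPM, with slight overlap, and passed in 6 of 12 fits, with an adjusted p of up to 0.0730 without WT DMαKG replicate 2. The other 7 tested CD8 and NK markers did not pass, and the list's median was 0.04. B and plasma cell markers had a median of 0.14 without a call, which was -0.29 with vehicle and 0.37 with DMαKG. Cd22 had 0.91 (adjusted p = 0.0733) and Cd79b, a chain of the B cell receptor, 0.26 (adjusted p = 0.587). Erythroid markers had a median of -0.58, with Hbb-bs, a haemoglobin chain, at 0 to 4.404 CPM in WT and 0 to 2.94 CPM in cKO. Of 12 neutrophil markers 5 had enough counts to be tested, with no call and a median of 2.06, which was 0.498 with vehicle and 3.515 with DMαKG. Their summed level was 12.86, 13.86 and 14.93 CPM at the lowest, median and highest WT library. In cKO it was 9.774, 13.5 and 42.35 CPM. In 3 of these markers the median was under 1 CPM in both genotypes. S100a9 had medians of 0.0849 and 0.396 CPM, with 11 CPM at the highest. Pan T cell markers had a median of -0.06, with Cd3e at -0.15 and Cd3g at 0.14. Summed marker levels overlapped between the genotypes in each of these lists.

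**Figure D4:**
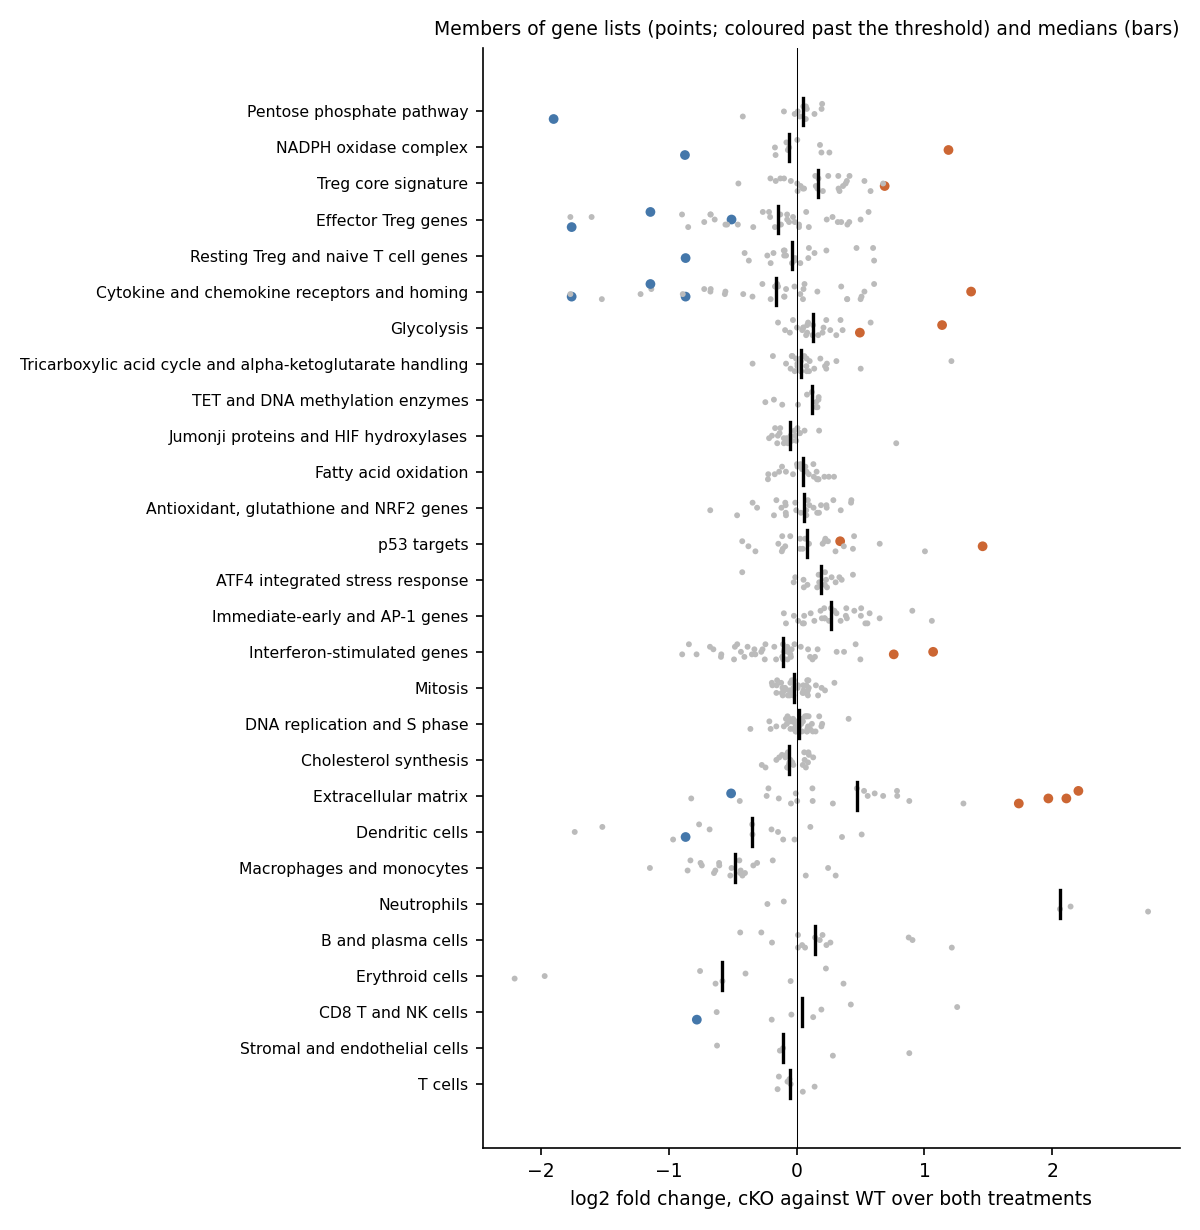
Log2 fold change of cKO against WT over both treatments (x axis) for the tested members of the gene lists (rows; 1 point a gene, large and coloured past the adjusted p of 0.05, orange higher and blue lower), with a black bar at each list's median. The matrix list has 4 orange points and a median of 0.47, the receptor list has 3 blue points and 1 orange, and the α-ketoglutarate, TET and Jumonji lists have no coloured point.

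The combined comparison can be set beside each treatment. With vehicle, 8 genes passed in the model with 1 mean per group, fitted to all 12 libraries (0.062% of those tested). With DMαKG, 24 passed (0.186%). Of the 136 genes of the combined comparison 112 passed in neither of these contrasts. Each contrast sets 3 mice against 3, with the spread shared over all 12 libraries. All but 1 of the 136 had an unadjusted p under 0.05 in both treatments, which the choice of genes favours and which is given as a description. Lama5 was of this kind, at 2.04 with vehicle and 1.44 with DMαKG, as were F13a1 at -1.97 and -2.24 and Ccr2 at -2.14 and -1.37. The 2 treatments use different mice, and a gene called in one was looked up in the other. Both contrasts share 1 estimate of each gene's spread, so this lookup is not independent and is a description. Tkt, whose fall the genotype sets, is counted in both sets of calls. Of the 8 genes called with vehicle 7 had the same direction with DMαKG and 6 an unadjusted p under 0.05 there, against 10.4% of all tested genes in either direction. Of the 24 called with DMαKG 23 had the same direction with vehicle and 21 an unadjusted p under 0.05, against 7.29%. The same direction in both treatments was seen in 57.3% of all tested genes. The genes called in a single treatment and not in the combined comparison were Ncoa7 with vehicle and Slfn5, Kynu and Haspin with DMαKG.

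The test of the difference between the treatments found no gene past the threshold (edgeR, smallest adjusted p = 0.955, 0% of genes), and 470 genes, 3.64%, had an unadjusted p under 0.05. DESeq2 called 1 gene, Ncoa7, a coactivator gene, with an adjusted p of 0.00105. Its log2 fold change was 0.64 with vehicle and -0.15 with DMαKG (edgeR adjusted p of the difference = 0.955). Next came Xcr1, a dendritic cell receptor, at -1.61 and 0.79, and Slc6a18, an amino acid transporter gene, at -0.82 and 0.81, the other two of the 3 genes with the smallest p. Of the 136 called genes 6 had an unadjusted interaction p under 0.05, all with the same sign in both treatments. Ncf1 stood at 1.47 with vehicle and 0.90 with DMαKG and Cxcr6 at -1.74 and -0.54, larger with vehicle. Kit at 0.90 and 1.47, Il1r2 at 0.83 and 1.89, Smarcd3 at 0.63 and 1.93 and Cd80 at 0.46 and 1.14 were larger with DMαKG. None of the 6 passed after adjustment. Over both treatments Smarcd3 and Cd80 were called in 4 and 5 of the 12 fits without 1 library, with an adjusted p of up to 0.0990 in both, without WT DMαKG replicate 1.

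**Figure D5:**
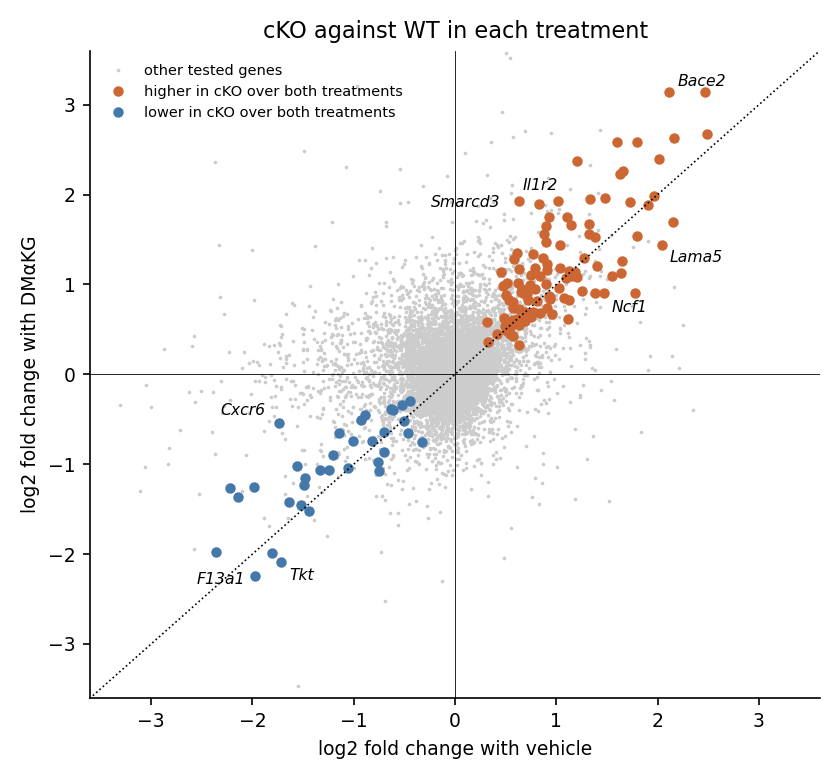
Log2 fold change of cKO against WT with vehicle (x axis) and with DMαKG (y axis) for the tested genes, with those called over both treatments coloured (orange higher, blue lower), a dotted line of equal change and axes ending at 3.6, which leaves out 16 genes. The coloured genes lie in the 2 quadrants of equal sign, which the choice of genes favours.

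Position on chromosome 14, which carries the floxed Tkt allele, was also described. Of 494 tested genes there 9 were called, Tkt included (1.82%), against 1.05% over all tested genes. Over whole chromosomes, chromosome 9 had the same share, with 13 of 715, and chromosome 3 had 1.67%. Within 5 Mb of Tkt 3 of 74 tested genes were called (4.05%) and within 10 Mb 4 of 96 (4.17%), besides Tkt itself. Windows of these sizes were not counted on other chromosomes. Of 162 within 20 Mb of Tkt 5 were called (3.09%) besides Tkt itself: Dlg5, Prxl2a and Mmrn2 were higher, and Tmem273 and Cacna1d lower. Cacna1d, a calcium channel gene that ends 58.0 kb before Tkt starts, was the only call among 36 tested genes within 2 Mb. It fell by 1.159 (adjusted p = 0.0284), from a WT range of 5.44 to 13.9 CPM to 2.10 to 4.92 CPM, without overlap. That call held in 5 of 12 fits without 1 library, with an adjusted p of up to 0.0671 without cKO vehicle replicate 3, and the adjusted p was 0.129 without the 3 libraries at the low end of the first component. Prxl2a passed in 3 of the 12 fits and Mmrn2 in 1, with adjusted p-values of up to 0.0939 and 0.107, without WT DMαKG replicate 1 and WT vehicle replicate 2. The sources used here do not say if sequence linked to the floxed allele differs between the groups, and its part in these values was not tested.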

How the data were processed

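RNA of sorted Tregs was extracted with Trizol, per the labels' protocols, and sequenced in 12 libraries of 3 mice per group. The table that the authors deposited gives each gene an estimated count, an FPKM and a TPM in every library. These estimated counts were deposited without scaling, and 36.0% were not whole, so they were rounded, although whole-number counts had been planned for. The FPKM values the authors deposited are scaled by length and depth, and the TPM values the authors deposited are scaled to 1 sum per library, per the file headers; neither was tested, and FPKM gave only the mean transcript length of a library. Per the submitters' processing notes, which state no roles, the tools were DESeq2 1.16.1, featureCounts 1.5.0-p3 and HISAT2 2.0.5, and mm10 was the build. The table held 0 columns of other samples, and 153 genes at 0 throughout.

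The tests ran in R 4.3.3 with edgeR 4.0.16, after its expression filter and TMM scaling, by a robust quasi-likelihood fit of treatment plus genotype (9 residual degrees of freedom), with Benjamini-Hochberg adjustment over 12903 genes and a threshold of 0.05. A model with 1 mean per group (8 residual degrees of freedom) gave the contrasts within each treatment and the interaction. The fitted common coefficient of biological variation was 19.7%. The fits were tested on simulated data. Alternatives used DESeq2 1.42.0, limma 3.58.1, other scalings, filters, thresholds, covariates and sets of libraries. RefSeq (GRCm38.p6, the assembly of mm10) matched 17901 gene IDs and gave coordinates and promoters.

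Named were Tkt; in each direction up to 15 protein-coding called genes with the smallest p and at least 1 CPM in a genotype, leaving out predicted and RIKEN genes; of each list up to 4 called members, or 2 with the smallest p; 6 Treg genes; 3 interaction genes; and Y-linked genes as a check. List members at other values and the 6 called genes with an interaction p under 0.05 were added after their values were seen. Some results that this rule names are not reported here. The members and lists were chosen with earlier results of these data known. Replicate numbers were not taken as pairing mice.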

Additional observations from a re-analysis of the deposited data

Results flagged for a closer look

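In 2 of 86 groups of 6 libraries checked, 1 library lay far from the other 5, where chance gives about 1 in 20. Cxcr6 in cKO vehicle replicate 2 was at 3.14 CPM, below the other cKO libraries at 5.49 to 7.25 CPM. Col5a1 in WT vehicle replicate 2 was at 0.0565 CPM, below the other WT libraries at 0.160 to 0.222 CPM, a level of few counts. Both libraries lie on the side that widens the difference between the genotypes.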

How the results depend on the processing

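The count of 136 genes stayed between 114 and 149 with DESeq2 size factors, upper-quartile scaling, no filter, at least 1 CPM in 6 libraries, 1 mean per group, no treatment term, a Y-linked covariate or a non-robust fit. It was 412 with DESeq2 and 675 with voom, 34 with the replicate block, 83 without the 3 libraries together on the first component, 0 with the vehicle libraries alone (edgeR; 1109 at an unadjusted p under 0.05), 3 with the DMαKG libraries alone, 69 at a log2 fold change of at least 1 and 34 at an adjusted p below 0.01. Chosen after seeing the data, a transcript-length covariate gave 254 and leaving out the 4 libraries with low or intermediate Y-linked counts gave 13. Without 1 library the count ran from 56 to 198: 56 without WT vehicle replicate 2, 58, 65 and 80 without WT DMαKG replicates 1, 2 and 3, 80 without cKO vehicle replicate 2, 83 and 85 without cKO DMαKG replicates 1 and 2, and 198 without replicate 3. Of the 136 genes 45 passed in all 12 of these fits, and none changed direction. The 8 genes with vehicle became 3 with DESeq2 size factors, 1 with the replicate block, 3 with the Y-linked covariate, 3 in the non-robust fit and 100 with DESeq2, and 1 to 5 without 1 library. The 24 with DMαKG became 0 with the block, 4 with the Y-linked covariate, 9 in the non-robust fit and 143 with DESeq2, and 1 to 33 without 1 library. The interaction stayed at 0 except with DESeq2, at 1, and was 0 without any 1 library. The cause of these shifts was not tested. Of the values of named genes under these alternatives 2321 kept their side of the threshold, 280 lost it and 19 gained it. None reversed direction where the gene was called in the main or the alternative fit. Changes of sign in genes called in neither were not counted. Same-numbered libraries had a correlation above 0.1 in 2 of 6 pairs, so the numbers were not taken as a pairing; 30 of the 136 genes passed with the block. Genes near 1 CPM rest on few counts.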

Other observations

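Further groups, 3 in number, were drawn up after the values were seen and are given as descriptions. The choice of groups favours high shares of calls, and no share was tested. Over all tested genes 1.05% were called and 49.0% had a log2 fold change above 0. Cilium and centriole genes held 7 calls among 62 tested, 6 higher and 1 lower, with 52 above 0 and a median log2 fold change of 0.22. Besides Ccdc40 and Cc2d2a they included Arl6, a small GTPase of the Bardet-Biedl group, at 1.23, Wdr35, an intraflagellar transport gene, at 0.66, Ninl, a centrosomal ninein-like gene, at 1.42, and Morn4 at 1.38. These passed in 5, 5, 11 and 8 of 12 fits without 1 library, with adjusted p-values of up to 0.0839, 0.0830, 0.0502 and 0.0609, without WT DMαKG replicate 1 for Arl6 and Ninl and replicate 2 for Wdr35 and Morn4. Ligands of co-stimulatory and co-inhibitory receptors held 3 calls among 14, all higher, with a median of 0.38. Cd80 rose by 0.79, from 3.36 to 6.66 CPM in WT to 7.32 to 9.80 CPM in cKO. Cd86 rose by 0.52, from 28.8 to 40.7 CPM to 40.4 to 59.1 CPM, with overlap, and Nectin2, a ligand of TIGIT, by 1.13. These 3 passed in 5, 2 and 7 of 12 fits without 1 library, with adjusted p-values of up to 0.0990, 0.110 and 0.0682, without WT DMαKG replicate 1 for Cd80 and WT vehicle replicate 2 for the others. Of 18 imprinted genes Plagl1 and Peg3 passed, and Peg3 rose by 1.92 from a WT median of 0.224 to 0.971 CPM. Penk, the enkephalin precursor, rose by 0.73 from 105 to 161 CPM at the median (8 of 12 fits, adjusted p up to 0.0665 without WT DMαKG replicate 2), and Il7 by 2.36 from 0.106 to 0.616 CPM.

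Of the called genes 15.4% had another called gene within 500 kb, against 11.8% of all tested genes, which is near the background. They made 11 pairs of adjacent called genes, 10 of them changed in the same direction. The same direction was seen in 62.2% of all pairs of called genes at any distance and in 54.4% of adjacent tested genes within 500 kb. Nrn1 and F13a1, 132.7 kb apart on chromosome 13, both fell, by 1.20 and 2.10, and no other gene between them was tested. Ccr9, Cxcr6 and Ccr2 lie in 1 cluster of receptor genes on chromosome 9 (123767211 to 124109140). The other tested genes of that stretch also had values below 0 without passing: Fyco1, which overlaps Cxcr6, at -0.16, Xcr1 at -0.34, Ccr1 at -1.52 and Ccr3 at -1.22. The pairing by position was noticed in the data and was not tested.

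Rps27rt, a retrogene related to the ribosomal gene Rps27 and of uncertain value where reads are shared between copies, was at 0 in all 6 WT libraries and had 71 counts over 5 of the 6 cKO libraries. Pooled over each genotype's libraries, it was at least 24.5-fold higher in cKO, against a floor of 3 counts in WT. This bound leaves out the spread between mice. The call of Rps27rt held in 1 of 12 fits without 1 library, with an adjusted p of up to 0.0963 without cKO DMαKG replicate 1.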
